A study of Mus musculus with 3 samples.

Results

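A set of 10 immediate early genes was described across 3 Affymetrix arrays of cultured mouse macrophages: Nr4a1, Nr4a2 and Nr4a3, Egr1, Egr2 and Egr3, Ier2, Ier3 and Ier5, and Klf2. They were taken by symbol from the platform annotation, and each of the 10 had 1 probe set with that symbol alone, out of 19938 genes in all. The macrophages were peritoneal cells of male Angptl4-/- mice (C57Bl/6J), drawn into the cavity by 4% thioglycollate injected 3 days earlier, and held in culture for 2 days. The groups, each on 1 array hybridised with RNA pooled from 3 samples, were intralipid plus ANGPTL4 (intralipid after 1.5 h with 2.5 µg/mL recombinant mouse ANGPTL4), intralipid alone, and PBS. Intralipid, a triglyceride emulsion, was given at 0.5 mM triglyceride, and every exposure lasted 6 h. The deletion of Angptl4, a secreted inhibitor of lipoprotein lipase, was shared by all 3 groups, so ANGPTL4 came only from the added protein by genotype. The comparisons ask how these genes differ under the lipid load and whether the added protein alters that. The labels name no mock pre-incubation for the other groups. With 1 array per group no test was possible and no p-value is given, and the words higher and lower describe these arrays only.

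Immediate early genes are transcribed within minutes of a stimulus without new protein synthesis, and most of their transcripts decay soon after. Serum response factor (SRF) with its ternary complex partners, and CREB downstream of cyclic AMP and stress kinases, are the best known activators of their promoters. NR4A proteins are orphan nuclear receptors whose activity is set largely by their amount. EGR proteins are zinc finger factors of GC-rich sites. IER proteins are named for the timing of their induction rather than for 1 shared fold, and KLF2 is a zinc finger factor that restrains inflammatory gene expression in monocytes and macrophages.

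Upstream sequence is shown for the NR4A genes and for Ier3 and Ier5, which had the largest ranges of deposited values, and for Klf2, which did not reach 2-fold. For Nr4a2 and Nr4a3 those ranges rest on values near background on the lower arrays, as given below. Each is the 250 bases before the annotated start in RefSeq (GRCm38.p6), 5′ to 3′ on the gene's strand, with capitals at any match to a searched motif. For Egr2, a stretch of 30 bases is shown because it holds the CArG box, the site of SRF.
Nr4a1 (chr15:101266596-101266845, plus strand): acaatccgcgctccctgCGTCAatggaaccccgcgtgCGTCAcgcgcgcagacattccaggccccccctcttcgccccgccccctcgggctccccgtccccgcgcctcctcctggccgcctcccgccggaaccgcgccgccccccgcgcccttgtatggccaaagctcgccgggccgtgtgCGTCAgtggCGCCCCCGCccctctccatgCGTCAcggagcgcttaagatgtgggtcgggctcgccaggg
Nr4a2 (chr2:57124004-57124253, minus strand): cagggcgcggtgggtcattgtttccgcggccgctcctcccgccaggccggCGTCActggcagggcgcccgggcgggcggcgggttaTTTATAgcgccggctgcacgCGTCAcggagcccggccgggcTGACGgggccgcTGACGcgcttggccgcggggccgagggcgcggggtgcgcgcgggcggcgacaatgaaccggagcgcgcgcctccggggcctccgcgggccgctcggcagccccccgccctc
Nr4a3 (chr4:48045055-48045304, plus strand): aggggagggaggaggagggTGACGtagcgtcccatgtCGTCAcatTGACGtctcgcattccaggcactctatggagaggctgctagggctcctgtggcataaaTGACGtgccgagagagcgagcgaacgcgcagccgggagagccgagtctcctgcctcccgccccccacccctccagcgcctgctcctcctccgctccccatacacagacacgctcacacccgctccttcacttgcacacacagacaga
Ier3 (chr17:35821463-35821712, plus strand): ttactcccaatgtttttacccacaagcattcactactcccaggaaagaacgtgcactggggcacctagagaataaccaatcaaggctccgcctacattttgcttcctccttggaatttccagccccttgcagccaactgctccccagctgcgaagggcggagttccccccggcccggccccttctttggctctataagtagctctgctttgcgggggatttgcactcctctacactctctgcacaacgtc
Ier5 (chr1:155099637-155099886, minus strand): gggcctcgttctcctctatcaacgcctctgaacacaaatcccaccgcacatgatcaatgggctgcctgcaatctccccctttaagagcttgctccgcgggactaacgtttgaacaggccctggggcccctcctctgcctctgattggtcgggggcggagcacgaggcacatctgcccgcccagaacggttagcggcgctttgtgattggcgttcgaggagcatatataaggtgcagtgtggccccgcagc
Klf2 (chr8:72318812-72319061, plus strand): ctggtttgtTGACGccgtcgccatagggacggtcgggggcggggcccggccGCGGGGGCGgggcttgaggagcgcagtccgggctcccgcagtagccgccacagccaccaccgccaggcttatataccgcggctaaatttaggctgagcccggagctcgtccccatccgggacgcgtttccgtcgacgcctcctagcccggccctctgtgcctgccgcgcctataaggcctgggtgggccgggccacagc
Egr2 (chr10:67537794-67537823, plus strand): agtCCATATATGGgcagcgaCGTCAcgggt

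The motifs, searched on both strands, were the CRE of CREB (TGACGTCA), its core (TGACG), the CArG box, the EGR site (GCGGGGGCG or GCGTGGGCG), the NR4A site (AAAGGTCA) and the TATA box (TATAAA). A full CRE would count as 2 cores, and 0 of the 7 genes with a sequence held one. The upstream windows of Nr4a1, Nr4a2 and Nr4a3 held 4 cores each. Among 32851 windows of that length in the table, 17.8% held at least 1 core and 0.137% held 4 or more, and windows of neighbouring starts of 1 gene overlap. The count of 4 or more was chosen after these sequences were seen. Klf2, which did not reach 2-fold, held 1 core. Nr4a1 and Klf2 each held an EGR site, which 3.06% of windows did. The window of Nr4a2 held a TATA box on the opposite strand (12.4% of windows), and the NR4A site (1.34%) was in none of the 7 genes. Ier3 and Ier5, among the genes with the largest differences, held no exact match to the searched letters in these windows. The TATA box was searched as TATAAA only. The windows of Ier3, Ier5 and Klf2 hold TATAAG, which was not counted, so presence of a TATA element is not settled by this search. Egr2 has 5 start sites in the table, and the window of the stretch shown held a CArG box (1.47% of windows) and 2 cores. Among all windows, 3.9% held 2 or more cores and 0.17% held a CArG box and a core. The Egr2 window that starts at chr10:67535249 held no match, and that at chr10:67537316 held another CArG box and no core. These matches are letters in a window, and binding was not measured here. Sequences of Egr1, Egr3 and Ier2 were not used here.

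The cultures carried macrophage transcripts on every array, and 10 of 11 macrophage markers reached the expression floor, with Cd163 below it. The summed linear level of the macrophage list was 24175 with intralipid plus ANGPTL4, 24374 with intralipid and 22934 with PBS, and its members differed in both directions. Cd14, a coreceptor for lipopolysaccharide, had log2 values of 10.34 with intralipid plus ANGPTL4, 11.17 with intralipid and 9.07 with PBS. Fcgr1, an IgG receptor gene, had 8.53 with intralipid plus ANGPTL4, 9.07 with intralipid and 9.54 with PBS, 2.01-fold lower with intralipid plus ANGPTL4 than with PBS. Csf1r, the receptor gene for the macrophage growth factor CSF-1, was lowest on the intralipid array, at 11.38 with intralipid plus ANGPTL4, 10.59 with intralipid and 10.87 with PBS, and so was Adgre1, an adhesion receptor gene of mature macrophages. Cd14 and Fcgr1 alone among the 11 were 2-fold apart in a comparison. Each array's floor, the median over its probe sets with 1 symbol, stood at log2 4.99 with intralipid plus ANGPTL4, 4.98 with intralipid and 5.00 with PBS. B cell, T and NK cell, mast cell and erythroid markers had 0 members past it, the last with 1 of 4 measured. Neutrophil, eosinophil, mesothelial and dendritic cell markers had 1 member past the floor each, and fibroblast markers 4 of 5. The summed linear level of the dendritic list was 60.5 with intralipid plus ANGPTL4, 82.5 with intralipid and 61.4 with PBS. Clec9a alone made this difference, with log2 values of 3.32 with intralipid plus ANGPTL4, 5.00 with intralipid and 3.44 with PBS. Clec9a barely reached the floor with intralipid and lay below it on the other arrays, so its difference rests on values near background. The other 3 markers of the list were below the floor and identical on all arrays. The part of this list in the results was not tested. The eosinophil sum was 207 with intralipid plus ANGPTL4, 183 with intralipid and 207 with PBS. The fibroblast sum was 2079 with intralipid plus ANGPTL4, 2088 with intralipid and 2103 with PBS. Its highest marker, Col1a2, had log2 values of 9.79 with intralipid plus ANGPTL4, 9.77 with intralipid and 9.79 with PBS, so fibroblast transcripts were well above the floor. Their part in the results was not tested. In RNA from whole cultures, fewer cells of a type and less RNA per cell cannot be told apart. Angptl4 itself had a log2 value of 4.92 on every array, and 49.3% of all genes were likewise identical on all 3. The position of the Angptl4 probes relative to the deletion is not given.

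With intralipid plus ANGPTL4, 6 of the 10 genes were at least 2-fold lower than with intralipid alone: Nr4a1, Nr4a2, Nr4a3, Egr1, Ier3 and Ier5. With intralipid, 5 of the 10 were at least 2-fold higher than with PBS, the same genes less Nr4a2, which was 1.97-fold higher. With intralipid plus ANGPTL4, 0 of the 8 that could be counted were 2-fold apart from PBS in either direction, and Nr4a2 and Nr4a3 lay below the expression floor on both arrays. Egr2, Egr3, Ier2 and Klf2 stayed within 1.33-fold in all 3 comparisons. Every array shows the level after 6 h only, so an earlier rise and fall would not be seen. A gene was counted where the log2 difference was at least 1 in size and the higher array reached the floor. Over all genes, 2.31% of 10004 were 2-fold lower and 2.54% 2-fold higher with intralipid plus ANGPTL4 than with intralipid. With intralipid against PBS, 2.52% of 10018 were 2-fold higher and 1.33% 2-fold lower. With intralipid plus ANGPTL4 against PBS, 0.884% of 9960 genes were 2-fold apart in either direction. The comparisons of intralipid plus ANGPTL4 with intralipid and of intralipid with PBS share the intralipid array, so they are not independent of each other.

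**Figure D1:**
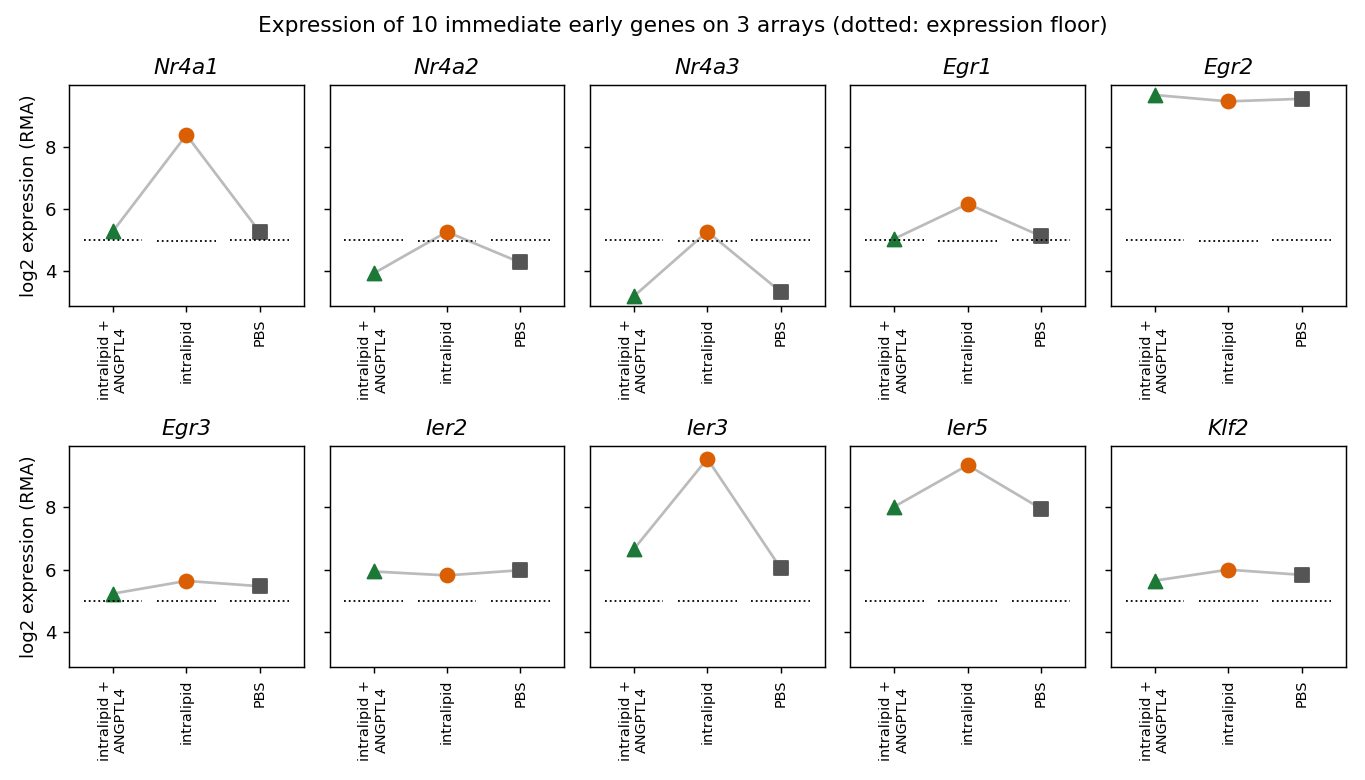
Deposited log2 expression value (vertical axis) of each of the 10 genes on the arrays with intralipid plus ANGPTL4 (triangle), intralipid (circle) and PBS (square), 1 array per group, with a grey line joining the arrays and dotted marks at each array's floor. Nr4a1 and Ier3 stand out on the intralipid array, at 8.37 and 9.55, while Egr2 lies between 9.45 and 9.65 on all 3.

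Nr4a2 and Nr4a3 reached the floor only on the intralipid array, where they were highest, so they could enter the counts only by differing. The other 8 genes reached it on every array. Of those 8, 4 were at least 2-fold lower with intralipid plus ANGPTL4 than with intralipid, against 2.02% of the 9730 genes past the floor on every array. Likewise 4 of the 8 were at least 2-fold higher with intralipid than with PBS, against 2.24%. The median log2 difference over all 10 genes was -1.22 for intralipid plus ANGPTL4 minus intralipid, 1.01 for intralipid minus PBS and -0.06 for intralipid plus ANGPTL4 minus PBS, and the median over all genes tested was 0 in each. Over the 8 genes past the floor on every array, the median was -0.76 for intralipid plus ANGPTL4 minus intralipid, 0.60 for intralipid minus PBS and -0.01 for intralipid plus ANGPTL4 minus PBS, beside 0 over all genes past it on every array. With values below the floor set to the floor, the medians over the 10 genes were -0.38 for intralipid plus ANGPTL4 minus intralipid and 0.27 for intralipid minus PBS. The intralipid array gave the highest value of the 3 for 8 of the 10 genes and for 18.2% of the 10057 genes past the floor on at least 1 array. Among genes past the floor on every array, that was 6 of the 8 and 17.8% of 9730. Egr2 was highest with intralipid plus ANGPTL4 and Ier2 with PBS.

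The NR4A receptors all had their highest value on the intralipid array. Nr4a1 (probe set 10427035, chromosome 15), which encodes NUR77, had log2 values of 5.29 with intralipid plus ANGPTL4, 8.37 with intralipid and 5.26 with PBS. It was 8.45-fold lower with intralipid plus ANGPTL4 than with intralipid, rank 17 from the lowest among 10004 genes, and 8.62-fold higher with intralipid than with PBS, rank 17 from the highest among 10018. The arrays with the protein and with PBS differed by 0.03 on the log2 scale for this gene. Both of these values lay not far above their floors of 4.99 and 5.00, so their closeness and both folds rest on low values. Nr4a3 (10504838, chromosome 4), which encodes NOR1, had log2 values of 3.21 with intralipid plus ANGPTL4, 5.27 with intralipid and 3.35 with PBS. Nr4a2 (10482772, chromosome 2), which encodes NURR1, had log2 values of 3.93 with intralipid plus ANGPTL4, 5.27 with intralipid and 4.29 with PBS. Nr4a3 was 4.19-fold lower with intralipid plus ANGPTL4 than with intralipid and 3.80-fold higher with intralipid than with PBS. Nr4a2 was 2.52-fold lower with intralipid plus ANGPTL4 than with intralipid and 1.97-fold higher with intralipid than with PBS. The lower arrays of both genes lay below the floor, so these folds rest on values near background. Set against the floor itself, Nr4a3 would be 1.22-fold lower and 1.21-fold higher, and Nr4a2 would be 1.21-fold in both comparisons.

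The EGR genes split. Egr1 (10454782, chromosome 18), the member best known as a target of SRF and the ERK kinases, had log2 values of 5.05 with intralipid plus ANGPTL4, 6.16 with intralipid and 5.13 with PBS. It was 2.17-fold lower with intralipid plus ANGPTL4 than with intralipid and 2.05-fold higher with intralipid than with PBS, just past the threshold, and its lower arrays lay just above the floor. With the arrays centred on their medians, the difference between intralipid and PBS was 0.997 on the log2 scale, just short of 2-fold, which left 4 of the 10 genes counted as higher. Egr2 (10363735, chromosome 10), a factor also known for its role in myelinating Schwann cells, had log2 values of 9.65 with intralipid plus ANGPTL4, 9.45 with intralipid and 9.53 with PBS. Its difference was 0.20 for the protein with intralipid against intralipid alone and -0.08 for intralipid against PBS, opposite in sign to those of Egr1. Egr3 (10416251, chromosome 14), known with Egr2 from T cell tolerance, had log2 values of 5.23 with intralipid plus ANGPTL4, 5.64 with intralipid and 5.47 with PBS. The intralipid array was again the highest, but by 1.33-fold over intralipid plus ANGPTL4 and 1.12-fold over PBS. Over all genes tested, a robust SD of the differences was 0.23 for intralipid plus ANGPTL4 minus intralipid and 0.20 for intralipid minus PBS. Both differences of Egr2 were smaller than this spread over genes.

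The IER genes held the largest difference of the 10 genes and 1 of the smallest. Ier3 (10444890, chromosome 17), which encodes the stress-inducible survival protein IEX-1, had log2 values of 6.66 with intralipid plus ANGPTL4, 9.55 with intralipid and 6.05 with PBS. It was 7.42-fold lower with intralipid plus ANGPTL4 than with intralipid, rank 27 from the lowest, and 11.3-fold higher with intralipid than with PBS, rank 13 from the highest. With intralipid plus ANGPTL4 it was still 1.53-fold above PBS, rank 221 from the highest of 9960 genes, the largest difference of the 10 genes in that comparison. Ier5 (10358978, chromosome 1), a regulator of the heat shock factor HSF1, had log2 values of 8.02 with intralipid plus ANGPTL4, 9.35 with intralipid and 7.95 with PBS. It was 2.51-fold lower with intralipid plus ANGPTL4 than with intralipid, 2.63-fold higher with intralipid than with PBS, and 1.05-fold higher with intralipid plus ANGPTL4 than with PBS. Ier2 (10580183, chromosome 8), a nuclear protein related to IER5, had log2 values of 5.94 with intralipid plus ANGPTL4, 5.82 with intralipid and 5.98 with PBS. It was lowest on the intralipid array, and its differences, 0.13 for intralipid plus ANGPTL4 minus intralipid and -0.17 for intralipid minus PBS, were smaller than the spread over genes.

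Klf2 (10572800, chromosome 8) had log2 values of 5.65 with intralipid plus ANGPTL4, 6.00 with intralipid and 5.83 with PBS. It was 1.28-fold lower with intralipid plus ANGPTL4 than with intralipid and 1.12-fold higher with intralipid than with PBS. The pattern closest to Klf2 among the 10 genes was that of Egr3, at a Euclidean distance of 0.04 log2 units over the 3 arrays after each gene was centred on its own mean. Ier2 lay closest to Egr2 (0.12), and Nr4a2 closest to Egr1 (0.20), with Nr4a2 below the floor on 2 of the 3 arrays.

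**Figure D2:**
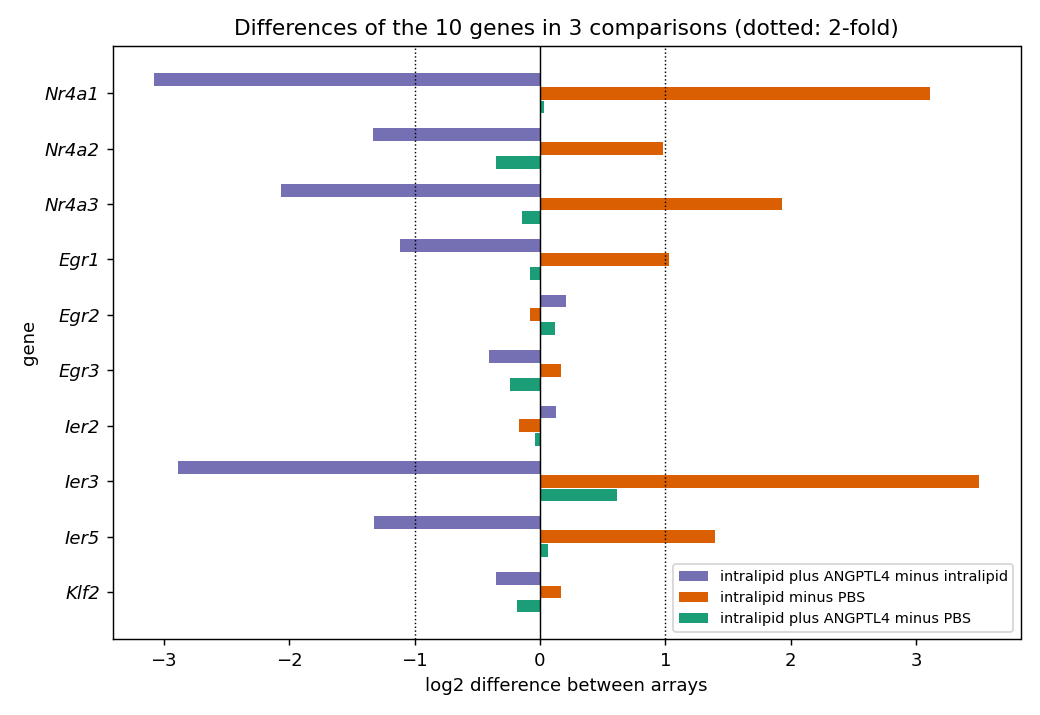
Log2 difference between 2 arrays (horizontal axis) for each of the 10 genes, with 1 bar per comparison and dotted lines at 2-fold. Nr4a1 and Ier3 have the longest bars, at -3.08 and -2.89 for intralipid plus ANGPTL4 minus intralipid and 3.11 and 3.50 for intralipid minus PBS, and the bars for intralipid plus ANGPTL4 minus PBS all stay between -0.35 and 0.61.

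**Figure D3:**
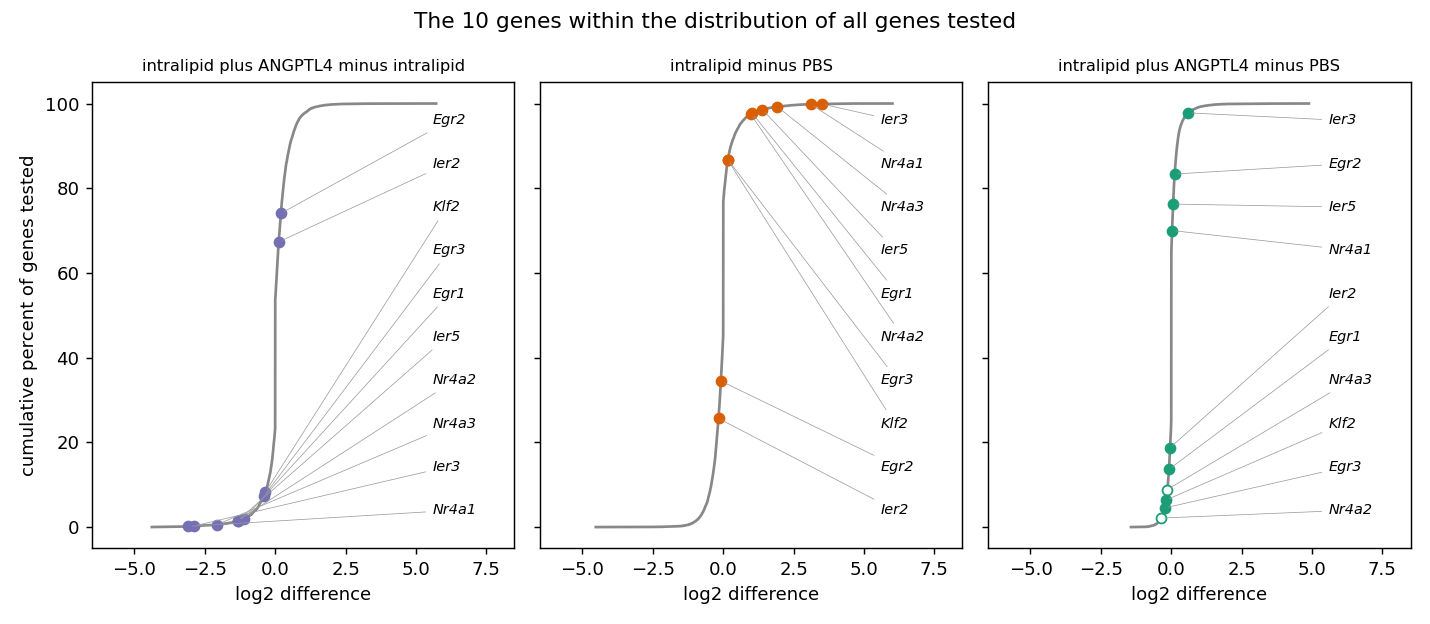
Cumulative percent of all genes tested (vertical axis) by log2 difference (horizontal axis) in each of the 3 comparisons, with the 10 genes marked on the curve and open circles for Nr4a2 and Nr4a3, which were below the floor on both arrays of the third comparison. Ier3 and Nr4a1 lie at the far end of the curve in the comparisons that share the intralipid array, at ranks 13 and 17 for intralipid minus PBS.

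By the same distance, the genes with the most similar pattern over the 3 arrays were sought for each gene that differed 2-fold. For Nr4a1 they were Malsu1, a factor of mitochondrial ribosome assembly (distance 0.03), and the nuclear protein gene Csrnp1 (0.08). For Nr4a2 they were Hdac5, a class IIa histone deacetylase (0.02), and Cyth1, an exchange factor of ARF GTPases (0.03). Nr4a3 was closest to Fosl2, an AP-1 subunit (0.03), and Jarid2, a Polycomb cofactor (0.09). The distances of Nr4a2 and Nr4a3 rest on values below the floor on 2 of the 3 arrays, so their nearest genes are uncertain. Egr1 was closest to Castor1, an arginine sensor (0.03), and the terminal uridylyltransferase gene Tut4 (0.04). Ier5 was closest to Mafk, a small MAF protein (0.03), and the kinase gene Plk2 (0.04). Ier3 had no neighbour as near: Ifrd1 was at 0.22 and the phosphatase gene Dusp1 at 0.24. With 3 arrays and 9655 candidate genes, such a distance describes these arrays only.

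Other immediate early genes outside AP-1 differed in the same direction on these arrays. The list was chosen with earlier results of these data known, so it is not independent support. Of 40 measured (41 listed), 21 were at least 2-fold lower with intralipid plus ANGPTL4 than with intralipid and 0 higher. Over all genes tested these shares were 2.31% and 2.54%, and the median log2 difference of the list was -1.10. With intralipid against PBS, 24 were at least 2-fold higher and 0 lower, against 2.52% and 1.33% over all genes. The median of the list was 1.28. With intralipid plus ANGPTL4 against PBS, 1 was 2-fold higher, Nfkbiz, an inducible IkB protein, and the median was 0.04. Over all genes, 0.884% were 2-fold apart there in either direction. All 40 reached the floor on at least 1 array and 39 on every array. Csrnp1 had log2 values of 6.16 with intralipid plus ANGPTL4, 9.14 with intralipid and 6.13 with PBS. Nfil3, a bZIP repressor, had 6.27 with intralipid plus ANGPTL4, 9.22 with intralipid and 6.66 with PBS. Errfi1, an inhibitor of EGF receptor signalling, had 7.10 with intralipid plus ANGPTL4, 9.46 with intralipid and 6.94 with PBS. All 3 stood highest on the intralipid array. Other genes of the list differed from this pattern. Id1, an inhibitor of bHLH factors, was identical on all arrays (5.28), as were 49.3% of all genes. Such ties are common in the deposited values, so this one says little about Id1. Zfp36l1, an mRNA decay factor, had 5.99 with intralipid plus ANGPTL4, 6.67 with intralipid and 6.70 with PBS, so it was 1.61-fold lower with intralipid plus ANGPTL4 than with intralipid but nearly level between intralipid and PBS. Nfkbiz had 6.87 with intralipid plus ANGPTL4, 6.69 with intralipid and 5.54 with PBS, higher on both intralipid arrays than on the PBS array.

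The list of relatives and partners of the 10 genes held Egr4, the EGR corepressor genes Nab1 and Nab2, Ier5l, Ier3ip1 and the RXR receptor genes. RXR receptors can pair with some of the NR4A proteins. Of the 8 genes in this list, 7 reached the floor and 0 were 2-fold apart in any comparison. Nab2, itself a known EGR target, had log2 values of 7.64 with intralipid plus ANGPTL4, 7.49 with intralipid and 7.64 with PBS. Egr4 was identical on the 3 arrays at 5.39, as were 49.3% of all genes. Of the 42 other nuclear receptors measured, of which 19 reached the floor, 0 were 2-fold apart in any comparison. The median difference was 0 in each, where 27 to 30 of the 42 had equal values. Over all genes tested, 2.54% were 2-fold higher and 2.31% lower with intralipid plus ANGPTL4 than with intralipid. With intralipid against PBS, these shares were 2.52% and 1.33%. By those shares short lists may hold 0, so no contrast with the 10 genes is drawn. Among 16 other KLF genes, 11 of which reached the floor, 1 was 2-fold lower with intralipid plus ANGPTL4 than with intralipid and 2 were 2-fold higher with intralipid than with PBS. They were Klf4, a macrophage and epithelial factor (5.92 with intralipid plus ANGPTL4, 7.51 with intralipid and 6.20 with PBS), and, for intralipid against PBS, also Klf7 (7.36 with intralipid plus ANGPTL4, 7.96 with intralipid and 6.87 with PBS).

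**Figure D4:**
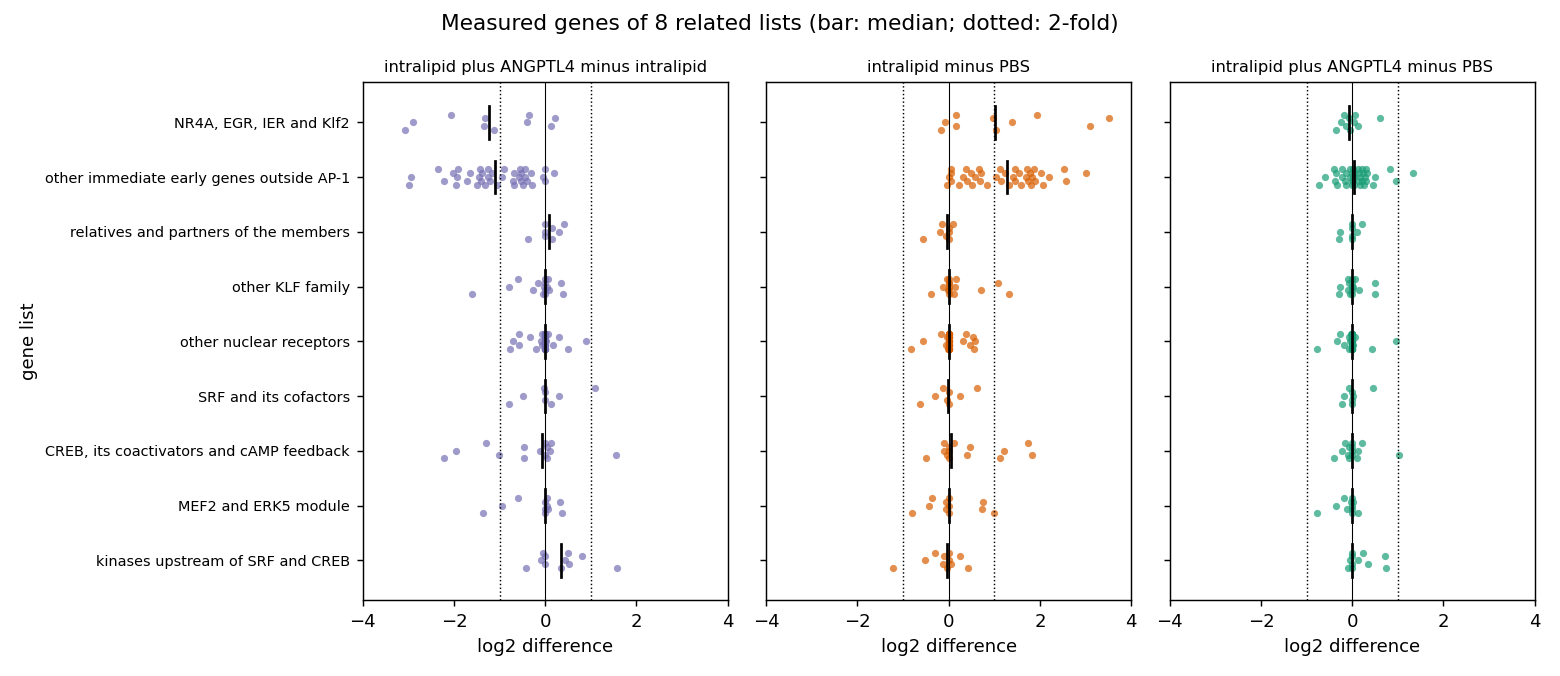
Log2 differences (horizontal axis) of the 10 genes and of every measured gene of 8 related lists (vertical axis) in the 3 comparisons, 1 point per gene, with a bar at the median and dotted lines at 2-fold. The medians of the 10 genes (-1.22 and 1.01, or -0.76 and 0.60 over the 8 past the floor on every array) and of the other immediate early genes (-1.10 and 1.28) lie away from 0 in the comparisons that share the intralipid array, and the other lists have medians between -0.06 and 0.35.

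Transcripts of the known upstream regulators, and of the feedback and target genes listed with them, differed gene by gene. SRF and its cofactors had a median of 0 for intralipid plus ANGPTL4 minus intralipid and of -0.02 for intralipid minus PBS over 8 genes. Srf itself had log2 values of 7.18 with intralipid plus ANGPTL4, 6.87 with intralipid and 7.17 with PBS. Elk3, a ternary complex factor, was the only one past 2-fold, 2.12-fold higher with intralipid plus ANGPTL4 (8.80) than with intralipid (7.72). In the CREB list of 14 measured genes, 4 were at least 2-fold lower and 1 higher with intralipid plus ANGPTL4 than with intralipid. There, 4 were at least 2-fold higher and 0 lower with intralipid than with PBS. Over all genes tested, 2.31% were 2-fold lower and 2.54% higher in the former comparison, and 2.52% higher and 1.33% lower in the latter. Sik1, a kinase that feeds back on CREB coactivators, had log2 values of 5.59 with intralipid plus ANGPTL4, 7.82 with intralipid and 5.99 with PBS. Per1, a clock gene with CREB sites, had 5.92 with intralipid plus ANGPTL4, 7.88 with intralipid and 6.13 with PBS, and Crem, a CREB relative, had 5.32 with intralipid plus ANGPTL4, 6.61 with intralipid and 5.49 with PBS. Creb1 itself differed little, at 8.08 with intralipid plus ANGPTL4, 7.97 with intralipid and 7.97 with PBS. Atf1, another CREB relative, had 9.37 with intralipid plus ANGPTL4, 10.37 with intralipid and 9.15 with PBS. It was 2.003-fold lower with intralipid plus ANGPTL4 than with intralipid, barely past the threshold, and 2.33-fold higher with intralipid than with PBS. Sik1 and Per1 are also in the list of other immediate early genes. The regulatory subunit gene Prkar2b went the other way, 2.91-fold higher with intralipid plus ANGPTL4 than with intralipid and 2.05-fold higher than with PBS.

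Among 11 genes of the MEF2 and ERK5 module, which acts on Nr4a1 and Klf2 promoters, Hdac5 alone was 2-fold apart in a comparison. It had log2 values of 7.12 with intralipid plus ANGPTL4, 8.47 with intralipid and 7.47 with PBS. That was 2.56-fold lower with intralipid plus ANGPTL4 than with intralipid, and 2.002-fold higher with intralipid than with PBS, barely past the threshold. Over all genes tested, 2.54% were 2-fold higher and 2.31% lower in the former comparison, and 2.52% higher and 1.33% lower in the latter. Of 11 measured kinase genes upstream of SRF and CREB (16 listed), Mapk14, which encodes p38 alpha, had log2 values of 8.14 with intralipid plus ANGPTL4, 6.57 with intralipid and 7.80 with PBS. It was 2.97-fold higher with intralipid plus ANGPTL4 than with intralipid and 2.35-fold lower with intralipid than with PBS, opposite to the immediate early genes, and it was the only kinase gene of this list past 2-fold. The median difference over the list was 0.35 for intralipid plus ANGPTL4 minus intralipid and -0.05 for intralipid minus PBS. Arrays measure transcripts, and kinase activity was not measured here.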

How the data were processed

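The authors deposited 1 log2 value per probe set and array, made with RMA per the submitters' processing notes. A genome build, a chip definition and an RMA version were not given in the sources used. RNA of 3 samples was pooled per array per the labels' protocols, so the number of arrays limits the precision. The table held 35556 probe sets, of which 21789 had 1 gene symbol in GEO's platform annotation, 1621 several and 12146 none. A gene with several probe sets was read from the one with the highest mean. Values were used as deposited, and 41.4% of probe sets were identical on all 3 arrays. Differences, floors and counts were computed with pandas 2.3.3 under Python 3.11.15. Quantile normalization and cyclic loess were run with limma 3.58.1 as alternatives. The counting was checked on simulated data with changes put only into genes with 1 probe set, as the 10 genes have. In a first version with all genes, some lowered genes with several probe sets were missed, because another probe set then had the highest mean, so counts of lower genes over all genes may be too low. The 10 genes, the gene lists and the naming rule were chosen with earlier results of these data known. The text names the 10 genes, up to 4 genes per list with the largest differences of at least 2-fold, and the 2 nearest genes per gene. Egr4, Nab2, Srf, Creb1, Atf1, Id1, Zfp36l1, Nfkbiz and the markers named were chosen after their values were seen. Alternatives were fold thresholds, floors, normalizations and other choices among probe sets.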

Additional observations from a re-analysis of the deposited data

How the results depend on the processing

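The values of the 10 genes moved by at most 0.05 on the log2 scale under median centring, quantile normalization and cyclic loess. Both other choices of probe set could not move them, because each of the 10 genes has 1 probe set. The 150 values compared include those fixed ones. Of these values 1 changed sign, Nr4a1 for intralipid plus ANGPTL4 minus PBS (-0.01 with median centring, 0.03 as deposited), and it was not 2-fold apart. Median centring also took Egr1 for intralipid minus PBS to 0.997 (1.03 as deposited), so 4 of the 10 genes in place of 5 were 2-fold higher with intralipid than with PBS. At 1.5-fold, 6 of the 10 genes were higher with intralipid than with PBS, and 1 of the 10 genes (Ier3) was higher with intralipid plus ANGPTL4 than with PBS. Over all genes, 1.5-fold gave 830 higher and 498 lower with intralipid plus ANGPTL4 than with intralipid (254 and 231 at 2-fold), 509 and 560 for intralipid against PBS (252 and 133), and 236 and 53 for intralipid plus ANGPTL4 against PBS (84 and 4). At 3-fold, 3 of the 10 genes were lower in the first comparison and 3 higher in the second, and over all genes the counts higher and lower were 58 and 102, 117 and 20, and 25 and 0 in the same comparisons. With the floor at the 75th percentile, the 4 genes left (Nr4a1, Egr2, Ier3 and Ier5) had medians of -2.11 for intralipid plus ANGPTL4 minus intralipid, 2.25 for intralipid minus PBS and 0.095 for intralipid plus ANGPTL4 minus PBS (3 were 2-fold lower in the first and 3 higher in the second), because fewer genes passed. Of 108 counts, 91 stayed within 1.5 times, and 18 of 21 medians moved by less than 0.1. Both totals include results of the 10 genes that the other choices of probe set could not move. No replicate could be left out, and no paired analysis was possible because each group has 1 array.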
